A study of Mus musculus with 41 samples.

Results

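The comparison set cells grown on recombinant DLL4 (rDLL4) against cells grown on recombinant JAG1 (rJAG1), in 6 of the series' 41 RNA-seq libraries, 3 libraries for each ligand. The libraries were chosen by their labels alone, were paired by replicate number, and were compared over all 13407 genes of the authors' table. The cells were MEEC, a wild-type line of mouse embryonic endocardium, the inner lining of the heart. Each ligand had been attached to the floor of 24-well dishes, DLL4 as a His-tagged protein and JAG1 as an Fc fusion, and DMSO, the solvent of the inhibitor, was present in these wells. Cells stayed on the ligands for 38 h, the last 14 h without serum. In 2 further groups of 3 libraries, cells on the same ligands received 20 µM RO4929097, a gamma-secretase inhibitor (rDLL4+RO and rJAG1+RO), and a DMSO group of 3 libraries had no ligand. The tags differed with the ligands, and no source used here gives the amount of protein on the dishes, so ligand, tag and amount cannot be told apart. MEEC is 1 cell line. The labels do not say whether libraries of a group were separate cultures, and a p-value here measures only the spread between the libraries.

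Notch receptors are opened by pulling ligands on a neighbouring cell or surface, after which gamma-secretase frees the intracellular domain, which enters the nucleus and works with the DNA-binding protein RBPJ. DLL4 and JAG1 bind the same receptors, and sugars added to the receptor by Fringe enzymes are known to favour Delta-type over Jagged-type ligands. In the embryonic heart, endocardial Notch activity takes part in trabeculation and in the change of valve endocardium into mesenchyme.

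The 15 libraries of the experiment held 11.2 to 34.2 M reads, a median of 18.1 M. Libraries 2 of rJAG1 and 3 of DMSO differed most from the others of their groups: the chi-square per gene between counts was 17.9 and 22.2 for rJAG1 library 2 against libraries 1 and 3, beside 6.91 between those 2, and the rDLL4 pairs lay between 6.83 and 8.22. Of 20 endothelial and endocardial markers, 10 were in the table, among them Kdr, Tek, Nfatc1 and Npr3, while Pecam1, Cdh5, Flt1, Tie1, Emcn and Erg were not listed. The summed signal of the 10 was 223 to 252 over rDLL4, 194 to 226 over rJAG1 and 229 to 289 over DMSO, and none of them was called between the ligands. None of the 3 cardiomyocyte, 5 leukocyte or erythroid, 5 stromal or adipocyte and 7 smooth muscle markers in the table was called between the ligands either. Over all genes 0.88% were called, so lists this short say little. The 7 smooth muscle markers summed to 2230 to 2990 over rDLL4, 2240 to 3360 over rJAG1 and 1120 to 2970 over DMSO. The 5 stromal or adipocyte markers summed to 775 to 930 over rDLL4, 690 to 821 over rJAG1 and 756 to 1070 over DMSO. Over rDLL4 the cardiomyocyte markers summed to 20.3 to 27.9 and the leukocyte or erythroid ones to 4.66 to 6.54.

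Over rDLL4, 118 of 13407 genes (0.88%) differed from rJAG1 at an adjusted p under 0.05 (limma on log2(signal + 1) with the replicate number as a block, Benjamini-Hochberg adjustment), 65 higher (0.485%) and 53 lower (0.395%). Signal is the authors' normalized read count per gene. Every log2 difference below was taken after adding 1 to the signal, and so comes out too small for low genes. The 65 genes were 0.28 to 1.40 higher on the log2 scale, a median of 0.56, and the 53 genes lay between -1.51 and -0.26, a median of -0.61. In all 118 the 3 same-numbered pairs differed the same way, against 33.6% of all genes. The 3 rDLL4 values did not overlap the 3 rJAG1 values in 63 of the 65 and in 51 of the 53, against 12.2% of all genes. The 118 were chosen by their differences in these same libraries, so both counts follow largely from that choice and add no support. At the edge of the threshold stood Junb (-0.44, adjusted p = 0.0491) inside and Myo7a (-0.76, adjusted p = 0.0505) outside. Without the replicate block 31 genes were called, all of them among the 118. With the 6 libraries fitted alone 42 were called. The count was 46 to 50 without any 1 rDLL4 library, 61 without rJAG1 library 2, 313 without DMSO library 3 and 251 without rJAG1 library 2 and DMSO library 3 together, a fit added after the data were seen. No gene of the 118 changed sign in any of these fits.

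Most called genes lay on the same side of DMSO over both ligands, by unequal amounts. A gene was counted as graded when the mean of both ligands differed from DMSO at the threshold and both ligand means lay on the same side of the DMSO mean; 111 of the 118 (94.1%) were graded. In 110 of the 111 the rJAG1 mean lay farther from DMSO, and the exception was Lama2. Of the 111, 86 were called against DMSO for rDLL4 and 110 for rJAG1. In 25 only rJAG1 was called, so for those genes a move over rDLL4 was not shown. None of the 118 was called in opposite directions from DMSO by the 2 ligands. Of the 65 genes higher over rDLL4, 59 lay below DMSO over rDLL4 and 64 over rJAG1, with median log2 changes from DMSO of -0.38 over rDLL4 and -0.95 over rJAG1. Of the 53 genes lower over rDLL4, 51 lay above DMSO over rDLL4 and 53 over rJAG1, with medians of 0.79 over rDLL4 and 1.52 over rJAG1. The comparisons of each ligand with DMSO share the DMSO libraries and are set side by side only; rDLL4 called 868 genes (6.47%), 539 up (4.02%) and 329 down (2.45%), and rJAG1 called 2022 (15.1%), 990 up (7.38%) and 1032 down (7.7%). The graded share lay between 88.5% and 98.4% in every alternative fit, with no gene called in opposite directions in any of them.

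The same order held beyond the called genes. The mean of both ligands differed from DMSO in 1747 genes (13%). Of the 912 it raised (6.8%), 757 (83%) were lower over rDLL4 than over rJAG1, 51 of them called, and the median difference was -0.13. Of the 835 it lowered (6.23%), 771 were higher over rDLL4, 60 of them called, and the median was 0.20. Over all genes 49.4% were lower over rDLL4 and the median was 0.00. The mean of the ligands and their difference would have unrelated errors if both groups were equally variable, but the median SD of log2 values was 0.09 among rDLL4 libraries and 0.135 among rJAG1 libraries, so this description is not free of shared error.

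**Figure D1:**
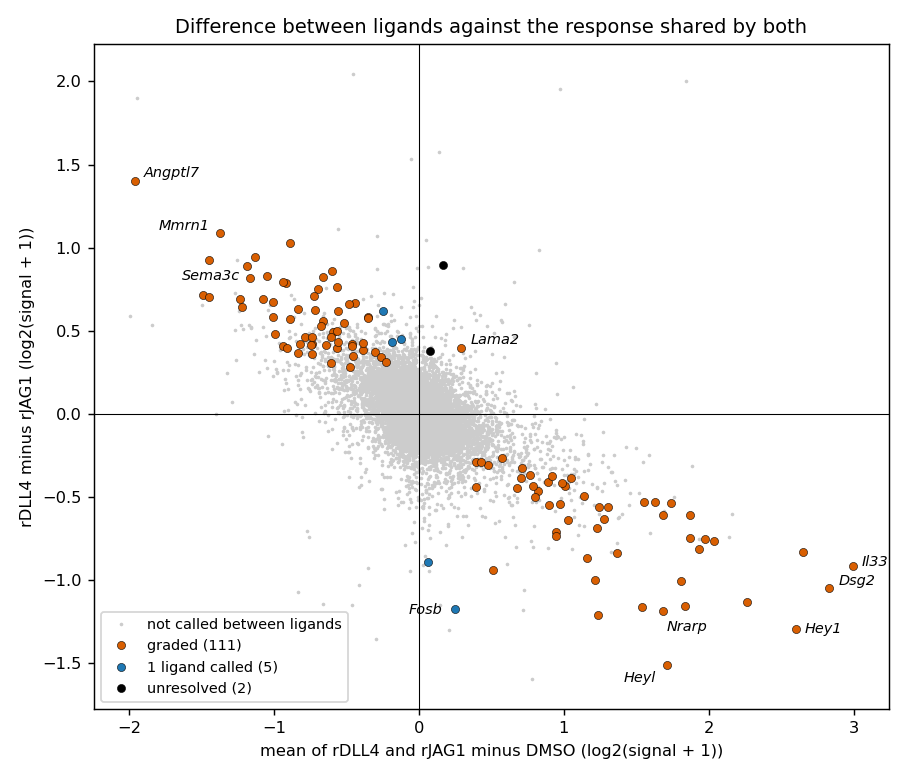
Each point is 1 of 13407 genes, with the mean of rDLL4 and rJAG1 minus DMSO on the x axis and rDLL4 minus rJAG1 on the y axis, both as differences of log2(signal + 1). The 111 graded genes, 25 of them called against DMSO for rJAG1 only, fill the upper left and the lower right, apart from Lama2. The 5 genes that were not graded and were called against DMSO for rJAG1 only lie near the vertical axis, as do the 2 unresolved genes.

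Notch target genes were lower over rDLL4 than over rJAG1. Of 11 listed targets, 6 were in the table. Of these, 4 were called lower over rDLL4 (Hey1, Heyl, Nrarp and Hey2), against 0.395% of all genes, and none was called higher. The median difference of the 6 was -0.97, against 0.00 over all genes. Of the 6, 5 rose over rDLL4 and 5 rose over rJAG1 against DMSO, Efnb2 being the member that did not in either case.

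Hey1, a transcriptional repressor of the Hairy family (chr3:8663359-8667256, minus strand, GRCm38), had a signal of 6.46, 6.01 and 5.19 in the rDLL4 libraries, 15.7, 19.2 and 13.2 in the rJAG1 libraries and 0.748, 0.816 and 0.754 in the DMSO libraries. All rDLL4 values lay below all rJAG1 values and above all DMSO values. The mean was 7.62 times that of DMSO over rDLL4 and 20.8 times that of DMSO over rJAG1, and the ligands differed by -1.29 ± 0.14 (SE, adjusted p = 0.0013).

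Heyl, a related repressor (chr4:123233556-123249875, plus strand), had 1.13, 1.33 and 0.932 over rDLL4 against 4.59, 4.25 and 6.59 over rJAG1, a difference of -1.51 ± 0.16 (adjusted p = 0.0013), the most negative of all called genes. In DMSO it held only 1 to 3 reads per library, so no fold against DMSO is given; over rDLL4 it held 10 to 30 reads and over rJAG1 59 to 107.

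Nrarp, a feedback inhibitor that binds the Notch intracellular domain (chr2:25180758-25183339, plus strand), had 11.4, 5.00 and 8.30 over rDLL4, 25.8, 15.8 and 17.2 over rJAG1, and 3.70, 2.68 and 3.16 over DMSO. The 3 groups did not overlap, and the ligands differed by -1.19 ± 0.15 (adjusted p = 0.0024). Hey2, the third member of the family (chr10:30832359-30842801, minus strand), had 20.7, 19.0 and 22.4 over rDLL4, 34.3, 32.6 and 40.0 over rJAG1 and 4.43, 4.71 and 10.8 over DMSO, a difference of -0.75 ± 0.16 (adjusted p = 0.0402). Its call was lost without the replicate block (adjusted p = 0.382) and in 5 of the 6 fits that left out 1 rDLL4 or rJAG1 library; that of Nrarp was lost without the block alone among the listed settings (adjusted p = 0.0529).

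Hes1, a classical Notch target, had means of 50.3 ± 4.70 over rDLL4, 64.8 ± 16.1 over rJAG1 and 29.7 ± 2.50 over DMSO (SD, n = 3). The difference of -0.34 between ligands did not pass (adjusted p = 0.29), and its 95% interval was -0.60 to -0.07. Efnb2, an ephrin of arterial endothelium, averaged 159 over rDLL4, 157 over rJAG1 and 156 over DMSO, and the interval of its ligand difference was -0.10 to 0.16.

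**Figure D2:**
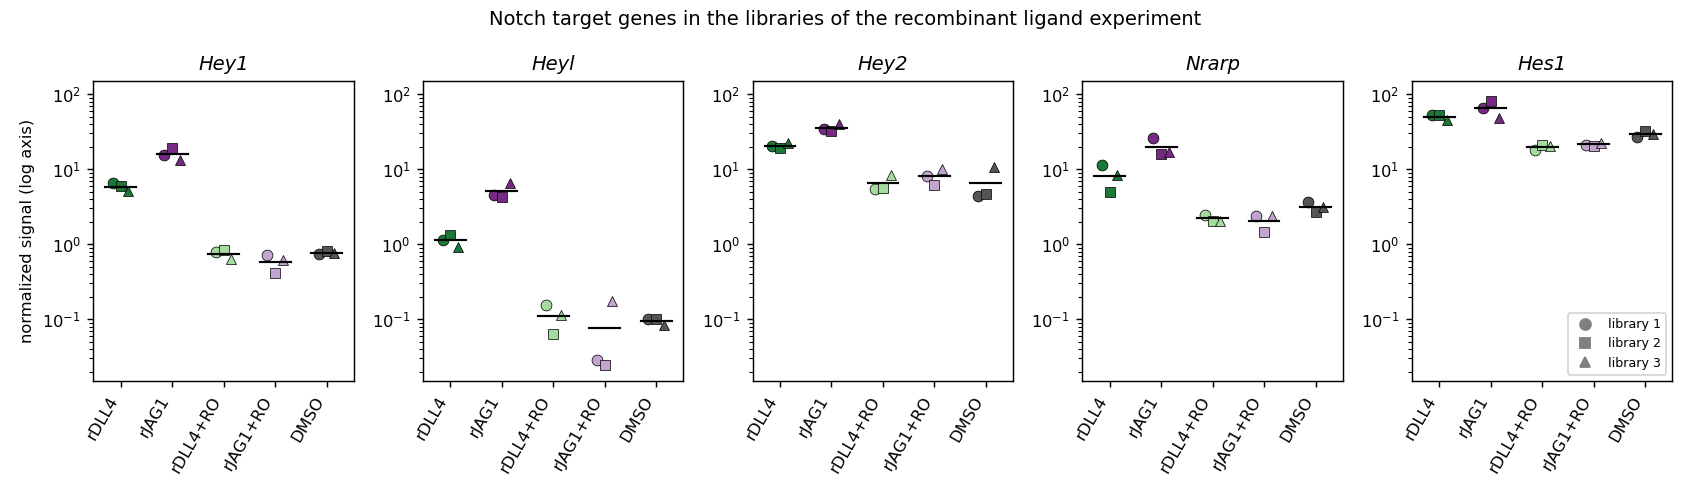
Normalized signal (log axis) of 5 Notch targets in each library of the 5 groups; points are libraries, with a symbol per replicate number, and bars are group means. For Hey1, Heyl and Nrarp the rDLL4 libraries lie between the rJAG1 and the DMSO libraries without overlap, and the libraries with the inhibitor lie at or below a signal of 2.49.

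The genome before the RefSeq start of 2 of these targets, and of Sema3c as a gene that moved the other way, is shown to let the RBPJ core motif TGGGAA be looked for. Sequences are the 250 bases before the gene's RefSeq start (GRCm38.p6), read along the gene, and capitals mark the motif on either strand. The Nrarp window lies at chr2:25180508-25180757 (plus strand), that of Hey2 at chr10:30842784-30843033 (minus strand) and that of Sema3c at chr5:17574566-17574815 (plus strand). The Sema3c window lies inside the gene as GENCODE places it, from chr5:17574281.
Nrarp: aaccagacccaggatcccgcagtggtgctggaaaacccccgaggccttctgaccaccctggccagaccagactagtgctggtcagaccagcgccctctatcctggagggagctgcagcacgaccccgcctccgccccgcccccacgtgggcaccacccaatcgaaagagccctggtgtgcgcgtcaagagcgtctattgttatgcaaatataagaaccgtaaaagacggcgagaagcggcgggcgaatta
Hey2: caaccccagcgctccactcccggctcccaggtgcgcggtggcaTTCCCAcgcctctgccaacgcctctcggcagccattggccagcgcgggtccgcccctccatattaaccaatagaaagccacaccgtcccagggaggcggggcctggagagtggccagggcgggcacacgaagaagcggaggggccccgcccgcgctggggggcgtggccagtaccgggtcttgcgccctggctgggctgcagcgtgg
Sema3c: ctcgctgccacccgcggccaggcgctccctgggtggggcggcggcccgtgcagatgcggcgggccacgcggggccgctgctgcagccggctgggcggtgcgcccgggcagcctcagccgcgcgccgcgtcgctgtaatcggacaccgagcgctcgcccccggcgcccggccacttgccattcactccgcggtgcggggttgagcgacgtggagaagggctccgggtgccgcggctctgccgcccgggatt
The Hey2 window held 1 motif, as TTCCCA on the strand shown, 207 bases before the start, and the Nrarp and Sema3c windows held none. The window of Mmrn1, another gene higher over rDLL4 and not printed here, held 2, at 120 and 79 bases before its RefSeq start. That window, at chr6:60944067-60944316, lies well inside the gene as GENCODE places it (chr6:60924976-60989378, plus strand). Over all 32851 windows 21.6% held the motif, and among measured genes with a window 23.6% did. Of the called genes, 76 had a window: 11 of 37 lower over rDLL4 (29.7%) and 9 of 39 higher over rDLL4 (23.1%) held it. These shares describe 250 bases only.

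Notch receptors and ligands showed no called difference, in 0 of 6, where 0.88% of all genes were called, so a list this short says little. Jag1, itself a ligand, averaged 58.9 ± 6.80 over rDLL4, 84.8 ± 14.4 over rJAG1 and 31.7 ± 7.07 over DMSO; the ligand difference was -0.51 (95% interval -0.78 to -0.24, adjusted p = 0.084). Notch1 differed by -0.25 (adjusted p = 0.546), and Notch2, Notch3 and Jag2 by 0.03, 0.06 and 0.04. Dlk1, a non-canonical ligand that inhibits Notch, had 1.80 ± 0.07 over rDLL4, 0.953 ± 0.376 over rJAG1 and 4.80 ± 2.25 over DMSO, 0.54 higher on the log2 scale over rDLL4, with no call (adjusted p = 0.329). None of 32 genes for processing, modification and nuclear partners of Notch was called, with a median of 0.06. At 0.88% of all genes called, such a list may well hold none.

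Among the other genes lower over rDLL4 with a mean signal of at least 4, the largest gaps were in H19, Dsg2, Il33, Igf2, Pkp1, Hecw1, Aldh1a3, Ntn4 and Prag1. Il33, an alarmin cytokine, had 133, 125 and 103 over rDLL4, 225, 243 and 213 over rJAG1 and 23.1, 25.2 and 13.3 over DMSO. The groups did not overlap, and the ligand difference was -0.92 ± 0.12 (adjusted p = 0.0031). Dsg2, a desmosomal cadherin, had 17.0, 17.5 and 13.2 over rDLL4, 32.7, 33.7 and 34.7 over rJAG1 and 2.73, 2.79 and 1.76 over DMSO, a ligand difference of -1.05 ± 0.13 (adjusted p = 0.0026). Pkp1, a desmosomal plaque protein, differed by -0.84 (adjusted p = 0.0218).

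H19 and Igf2 are neighbours in an imprinted region of chromosome 7, a long noncoding RNA and a growth factor. H19 had 82.5, 127 and 81.1 over rDLL4, 182, 199 and 251 over rJAG1 and 33.6, 38.1 and 18.01 over DMSO, and Igf2 averaged 8.14 ± 2.56 over rDLL4, 15.4 ± 1.73 over rJAG1 and 4.43 ± 0.74 over DMSO. Their ligand differences were -1.13 and -0.87 (adjusted p = 0.0233 and 0.0254). Aldh1a3, which makes retinoic acid, averaged 18.5 over rDLL4 and 33.3 over rJAG1, and Ntn4, a netrin of basement membranes, 14.0 over rDLL4 and 24.9 over rJAG1. Hecw1, a ubiquitin ligase, averaged 11.99 over rDLL4 and 21.8 over rJAG1, and Prag1, a pseudokinase scaffold, 33.9 over rDLL4 and 58.4 over rJAG1. Smaller differences with a small SE were found in Tuft1 (-0.54 ± 0.06, adjusted p = 0.0013) and in Runx1, a transcription factor of blood-forming endothelium (-0.56 ± 0.08, adjusted p = 0.0034).

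Among the genes higher over rDLL4, Sema3c, a secreted semaphorin needed for septation of the cardiac outflow tract, had 238, 271 and 207 over rDLL4, 136, 125 and 122 over rJAG1 and 456, 464 and 295 over DMSO. The 3 groups did not overlap, with rDLL4 in the middle, and the ligand difference was 0.89 ± 0.10 (adjusted p = 0.0013). Mmrn1, a multimerin of endothelial cells and platelets, had 12.5, 16.5 and 13.8 over rDLL4, 6.14, 5.53 and 6.84 over rJAG1 and 26.7, 29.6 and 22.1 over DMSO, a difference of 1.09 ± 0.12 (adjusted p = 0.0013). Gabra3, a GABA receptor subunit, had 11.7, 17.6 and 12.1 over rDLL4 and 5.60, 6.17 and 6.77 over rJAG1, and Pcdh10, a protocadherin, averaged 14.8 over rDLL4 and 7.19 over rJAG1; neither gene's ligand groups overlapped.

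Angptl7, a secreted angiopoietin-like protein, had the most positive difference of the called genes, 1.40 ± 0.29 (adjusted p = 0.0392). Its signal was 2.24, 7.19 and 2.80 over rDLL4, 0.502, 1.06 and 0.766 over rJAG1 and 12.02, 19.3 and 4.22 over DMSO. Library 2 was the highest in each of the 3 groups, rDLL4 library 2 overlapped DMSO, and the call was lost without the block (adjusted p = 0.271). The gene lies inside Mtor on the other strand, and no source used here says whether reads were counted by strand.

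Other named genes higher over rDLL4 were Igfbp5, which binds insulin-like growth factors (0.94), and Ms4a2, a subunit of the IgE receptor (0.83). So were Ptprq, a receptor phosphatase (0.79), Cst9, a cystatin (0.79), and 9230104L09Rik, a protein-coding gene near Cst9 (0.82). The remaining ones were the long noncoding RNAs Gm12840 (0.86) and Gm20186 (0.82). Ptprq had 206, 232 and 222 over rDLL4 and 156, 82.6 and 157 over rJAG1, where library 2 stood apart. Its call was lost with edgeR (adjusted p = 0.0715). Gm20186 overlaps Gm26809, so their reads may not be separable. Of the 24 named genes, 13 stayed called in all 6 fits that left out 1 rDLL4 or rJAG1 library, and 9 of those stayed called without the replicate block: Hey1, Dsg2, Il33, Mmrn1, Gabra3, Sema3c, Pcdh10, Ms4a2 and 9230104L09Rik.

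**Figure D3:**
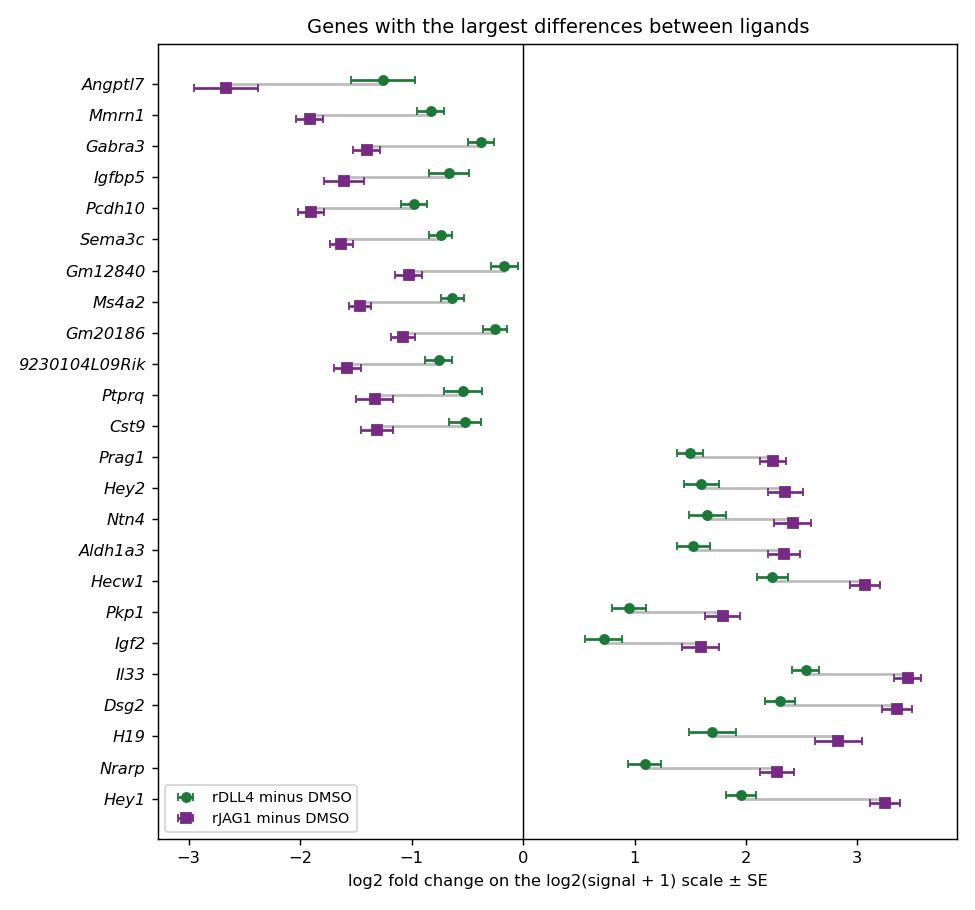
Log2 fold change from DMSO over rDLL4 (circles) and over rJAG1 (squares), with SE from the fit, for the 12 most positive and the 12 most negative ligand differences among called genes with a mean signal of at least 4. In all 24 genes both symbols lie on the same side of 0 and the rJAG1 symbol lies farther out.

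Several keratins were lower over rDLL4. Of 7 epithelial markers in the table, 5 were called lower over rDLL4 (Cdh1, Krt8, Krt14, Krt18 and Anxa8), against 0.395% of all genes, and none was called higher. The summed signal of the 7 was 1740 to 2030 over rDLL4, 2250 to 2530 over rJAG1 and 1340 to 1480 over DMSO. Krt14, a keratin of basal epithelium, averaged 702 ± 47.5 over rDLL4, 947 ± 72.1 over rJAG1 and 472 ± 26.0 over DMSO, and Cdh1, the epithelial cadherin, 13.3 ± 1.21 over rDLL4, 20.8 ± 2.36 over rJAG1 and 4.51 ± 0.73 over DMSO. Their differences were -0.43 (adjusted p = 0.0056) and -0.61 (adjusted p = 0.0397). Krt19 and Epcam, the remaining 2, differed by -0.02 and 0.04 and were not called. Of the 6 fits without 1 rDLL4 or rJAG1 library, Krt14 and Krt8 kept their calls in 5, Krt18 in 2, Cdh1 in 1 and Anxa8 in 0. Fewer cells of a type and less RNA per cell cannot be told apart in such bulk libraries, and the part of epithelial-type cells in the result was not tested.

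Secreted factors and matrix genes held called members in both directions, where 0.485% of all genes were called higher over rDLL4 and 0.395% lower. Of 29 listed secreted growth factors, Il33, Igf2 and Tgfb2 were lower over rDLL4 and Angptl7 was higher, with a median of -0.18 and 18 of 29 below 0. Outside the list, Fgf10 (0.67) and Rspo3 were called higher, and Tnfsf11 (-1.16) and Spp1 lower. Fgf10 kept its call in all 6 fits without 1 rDLL4 or rJAG1 library, and Angptl7 in 1. Tgfb2, a driver of cushion mesenchyme, averaged 71.3 ± 3.46 over rDLL4, 93.7 ± 8.98 over rJAG1 and 39.0 ± 3.17 over DMSO (-0.39, adjusted p = 0.0127). Of 18 elastic fibre genes, Efemp1 and Fbln5, both fibulins, were higher and Ltbp1, which tethers latent TGF-beta, was lower. Efemp1 had 320, 336 and 311 over rDLL4, 226, 238 and 207 over rJAG1 and 418, 423 and 448 over DMSO, with no overlap (0.53 ± 0.06, adjusted p = 0.0013). Of 26 listed collagens and laminins, Col8a1 (0.38) and Lama4 (0.55) were higher and none was lower. Lama2 (0.40) and Col4a4, which were not in that list, were called higher as well. Of 15 metalloproteinases and inhibitors Adamts9 was higher (0.65, adjusted p = 0.0053).

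Guidance molecules also split, where 0.485% of all genes were called higher over rDLL4 and 0.395% lower. Of 25, Sema3c and Sema3a were higher and Plxnd1 and Ntn4 lower over rDLL4, with a median of 0.01. Plxnd1, an endothelial semaphorin receptor, had 4.31, 4.88 and 3.33 over rDLL4, 9.61, 9.31 and 8.92 over rJAG1 and 2.53, 2.13 and 1.76 over DMSO (-1.001 ± 0.15, adjusted p = 0.0053). Of 20 integrins and junction genes, Itga7, Itga8, Cdh1 and Dsg2 were lower and none was higher. Of 19 AP-1 and immediate early genes, Fosb and Junb were lower and none was higher, with 14 below 0 and a median of -0.26. Between rDLL4+RO and rJAG1+RO the median of the 19 was -0.14, and none was called. Cdkn1a, a cell cycle inhibitor (-0.41, adjusted p = 0.0042), was the called member of 18 G1 regulators, Phlda3 (-0.44) of 20 p53 response genes and Nupr1 (-0.56) of 30 amino acid and protein stress genes. None of 27 genes of DNA replication and mitosis was called. With 0.88% of all genes called, lists of 18 to 30 genes with 1 or no called member say little about their families. Among the called members of these lists, Efemp1, Ltbp1, Adamts9, Plxnd1, Sema3c, Dsg2, Il33, Krt14 and Krt18 stayed called without the replicate block, and the others did not.

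Several lists held members that both ligands raised without a called difference between them. Outside the list of collagens and laminins, Lama2 was raised by the mean of both ligands and called higher over rDLL4. Of the 12 in the list that the mean raised, 7 were lower over rDLL4 and none was called. Their differences ran from -0.62 to 0.03, with a median of -0.09. Over all 912 genes raised by the mean, 5.59% were called lower and the median was -0.13, close to these values. Col1a1, the main fibrillar collagen, averaged 3232 ± 85.1 over rDLL4, 3373 ± 259 over rJAG1 and 2239 ± 160 over DMSO, with a ligand difference of -0.06 and an interval of -0.20 to 0.09. Col11a1 averaged 352 over rDLL4, 346 over rJAG1 and 190 over DMSO (interval -0.18 to 0.23), and fibronectin, Fn1, 3789 over rDLL4, 3714 over rJAG1 and 2602 over DMSO (interval -0.20 to 0.29). These 3 genes were chosen after their values were seen. Of 12 mesenchymal transition genes raised by the mean, 8 were lower over rDLL4, with a median of -0.12 and none called. The 5 Notch targets raised had a median of -1.19 and the 5 epithelial genes raised -0.43. The 9 interferon-stimulated genes raised went the other way: 1 was lower over rDLL4, the median was 0.24 and none was called. Whether these groups differ from one another was not tested.

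With 0.88% of all genes called between the ligands, a short list may hold none, and none of 25 interferon-stimulated genes in the table was called. In 21 of them rDLL4 minus rJAG1 was above 0, with a median of 0.24, against 6782 of 13407 and 0.00 over all genes. Against DMSO rDLL4 raised 10 of the 25 and rJAG1 raised 6. Isg15, a ubiquitin-like antiviral protein, averaged 20.2 ± 0.79 over rDLL4, 18.1 ± 2.74 over rJAG1 and 8.63 ± 1.03 over DMSO (interval -0.16 to 0.48), and Oas1g, an antiviral synthetase, 2.33 ± 0.56 over rDLL4, 0.938 ± 0.435 over rJAG1 and 0.600 ± 0.262 over DMSO (0.79, adjusted p = 0.0908). Both genes were chosen after their values were seen. Of 34 ribosomal protein genes, 33 were below 0, with a median of -0.12 and none called. Their median departure from DMSO was -0.05, -0.09 and -0.04 in the rDLL4 libraries and 0.02, 0.20 and -0.05 in the rJAG1 libraries, so rJAG1 library 2, which stood apart, held the highest value and library pair 3 showed almost no gap. None of 7 Fc receptor and complement genes in the table was called, with differences from -0.22 in Fcgr2b to 0.42 in C1ra.

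The 7 called genes that were not graded, and Lama2, did not follow that order. Lama2, a laminin chain, had 14.0, 14.7 and 13.3 over rDLL4, 10.2, 9.95 and 10.9 over rJAG1 and 9.36, 9.63 and 9.91 over DMSO: it rose over rDLL4 (0.49, adjusted p = 0.0029) and not over rJAG1 (0.10, adjusted p = 0.512). The ligands differed in Lama2 by 0.40 (adjusted p = 0.0485), a call lost in all 6 fits without 1 rDLL4 or rJAG1 library. Ermp1, a protease of the endoplasmic reticulum, had 81.2, 102 and 92.7 over rDLL4, 66.0, 71.2 and 65.9 over rJAG1 and 86.1, 92.2 and 91.2 over DMSO, so rJAG1 alone was apart from DMSO (0.43, adjusted p = 0.0032 between ligands). Rspo3, a Wnt agonist, Prdm9, a meiotic histone methyltransferase, Fosb, and Hist1h4k, a histone gene, were likewise called against DMSO for rJAG1 and not for rDLL4. Fosb had 0.796, 0.799 and 1.82 over rDLL4, 3.90, 4.00 and 3.28 over rJAG1 and 1.64, 2.50 and 0.977 over DMSO (-1.17, adjusted p = 0.0444), and edgeR did not call it (adjusted p = 0.0858). Gria3, a glutamate receptor subunit, and Gm14400 were called between ligands and for neither ligand against DMSO; Gria3 had 38.9, 47.7 and 45.7 over rDLL4, 33.6, 33.0 and 34.3 over rJAG1 and 36.7, 39.5 and 33.3 over DMSO.

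With gamma-secretase blocked, rDLL4+RO and rJAG1+RO differed in 0 genes (0%; limma with Benjamini-Hochberg adjustment, smallest adjusted p = 0.95), with 487 at an unadjusted p under 0.05 and 0 called by edgeR. Fitted on their 6 libraries alone they differed in 62 genes, 2 of which were among the 118. These 2 were Krt14 (-0.25, limma, adjusted p = 0.0231) and Gm12840 (0.33, adjusted p = 0.0371). Both kept the direction they had without the inhibitor, where the differences were -0.43 and 0.86. Of the 118 genes, 77 kept the direction they had without the inhibitor, 45 of the 65 and 32 of the 53. Over all genes, 49.9% were higher over rDLL4+RO than over rJAG1+RO. The differences of the 118 under the inhibitor ran from -0.44 to 0.41, with medians of 0.09 and -0.06. The 118 were chosen for their difference without the inhibitor, so smaller differences in other libraries follow in part from that choice. Hey1 had 0.785, 0.828 and 0.639 over rDLL4+RO and 0.717, 0.420 and 0.621 over rJAG1+RO, close to the DMSO libraries. Il33 averaged 19.8 over rDLL4+RO and 17.2 over rJAG1+RO, Dsg2 1.68 over rDLL4+RO and 1.81 over rJAG1+RO, and Sema3c 441 over rDLL4+RO and 426 over rJAG1+RO. The test of the difference itself, rDLL4 minus rJAG1 without the inhibitor less the same with it, called 1 gene, Hey1 (0.00746%; -1.44, adjusted p = 0.0425), with 846 at an unadjusted p under 0.05. edgeR called 0. When libraries were dropped one by one, 14 of 15 fits lost the Hey1 call; the fit without DMSO library 3 kept it and called 18 genes.

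**Figure D4:**
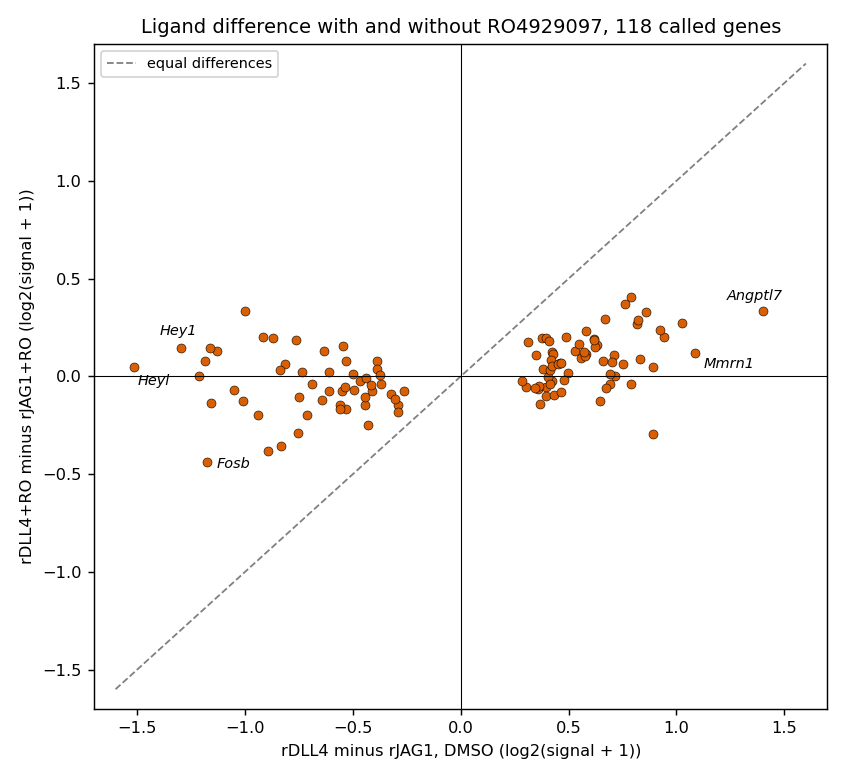
Difference between ligands without RO4929097 (x axis) and with it (y axis), as log2(signal + 1), for the 118 genes called without it; the dashed line marks equal differences. Without the inhibitor the differences spread from -1.51 to 1.40, against -0.44 to 0.41 with it. The genes were chosen by the x axis, so a narrower spread on the y axis follows in part from that choice.

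Genes that answered ligand-bearing stromal cells in other libraries of the series had the same order. In co-culture, MEEC had been laid over OP9 cells carrying GFP, Dll4 or Jag1, and these libraries play no part in the recombinant comparison. At 24 h OP9-Jag1 changed 281 genes against OP9-GFP (2.02%), OP9-Dll4 changed 71 (0.511%), while RO4929097 changed 118 genes in MEEC kept for 6 h over OP9-GFP (0.909%). Of 144 genes raised over OP9-Jag1 at 24 h (1.04%), 140 were in the recombinant table; 129 of them (92.1%) were lower over rDLL4 than over rJAG1, 29 were called lower and none higher, and the median was -0.29. Their median change from DMSO was 0.60 over rDLL4 and 0.94 over rJAG1. Of 137 lowered over OP9-Jag1 (0.987%), 127 were higher over rDLL4, 13 of them called, with a median of 0.25. Genes that answered OP9-Dll4 showed the same: of 37 raised (0.266%), 32 were in the recombinant table and 30 of those were lower over rDLL4, with a median of -0.35, and 34 of 34 lowered (0.245%) were higher, with a median of 0.35. RO4929097 lowered 89 genes in MEEC over OP9-GFP at 6 h (0.685%); of the 87 found in the recombinant table, 74 were lower over rDLL4, 20 of them called, with a median of -0.30. It raised 29 genes (0.223%); of the 27 found, 21 were higher over rDLL4, 2 of them called.

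**Figure D5:**
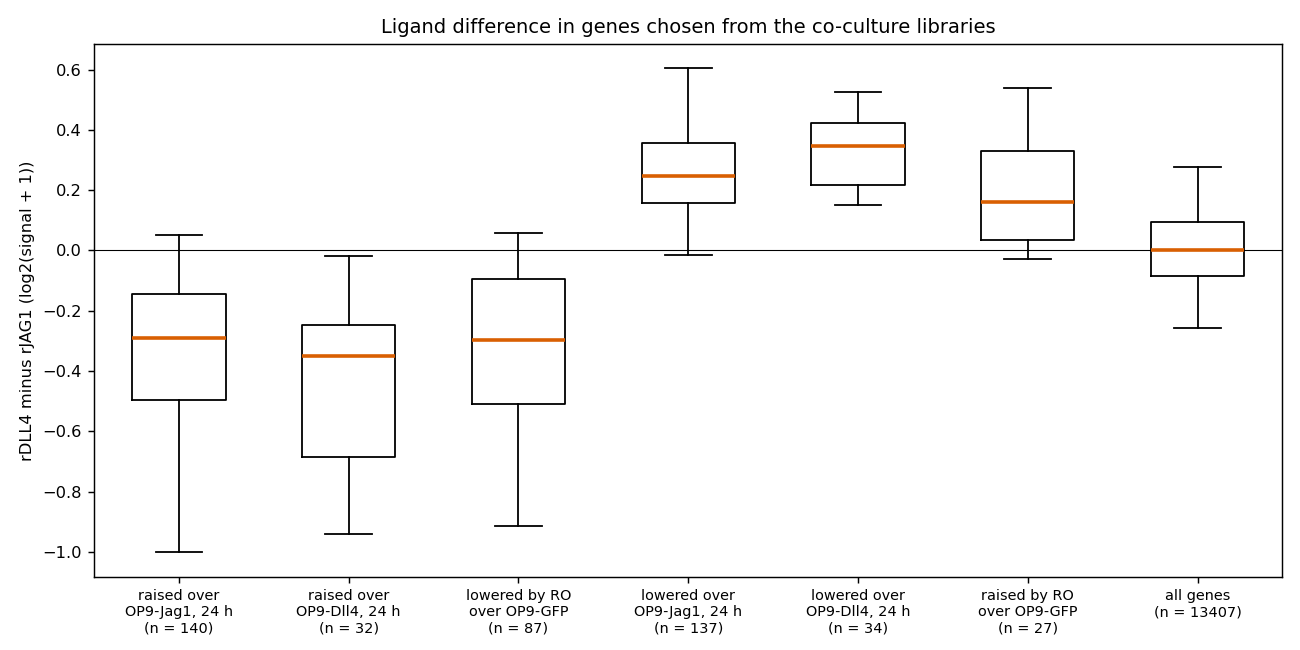
Difference rDLL4 minus rJAG1, as log2(signal + 1), in genes called in co-culture libraries and in all 13407 genes; boxes are quartiles with the median, and whiskers reach the 5th and 95th percentiles. The medians are -0.29, -0.35 and -0.30 in the first 3 sets, 0.25, 0.35 and 0.16 in the next 3 and 0.00 over all genes.

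The same 2 ligands borne by cells were compared in a fit without a replicate block, for which the recombinant count was 31. OP9-Dll4 and OP9-Jag1 differed in 4 genes at 24 h (0.0288%) and in 0 at 6 h (0%; limma, with 258 at an unadjusted p under 0.05), and none of the 4 was among the 118. At 24 h 87 of the 117 genes measured there had the direction seen with recombinant ligands, 43 of the 65 higher and 44 of the 52 lower. Their medians were 0.04 and -0.20. At 6 h 86 of 117 had that direction. Over all genes, 49.2% were higher over OP9-Dll4 than over OP9-Jag1 at 24 h and 45.8% at 6 h. Hey1 averaged 5.15 ± 1.34 over OP9-Dll4, 9.86 ± 1.36 over OP9-Jag1 and 1.86 ± 0.25 over OP9-GFP at 24 h, and Nrarp 33.2 ± 10.4 over OP9-Dll4, 46.1 ± 10.4 over OP9-Jag1 and 8.75 ± 0.96 over OP9-GFP. Sema3c averaged 141 ± 24.6 over OP9-Dll4, 119 ± 31.5 over OP9-Jag1 and 233 ± 19.4 over OP9-GFP. The authors normalized the tables separately, so levels are compared within a table only. Across genes, with no test since genes are not independent replicates, the recombinant difference correlated with that under the inhibitor at a Pearson r of 0.12 and a Spearman rho of 0.13 (11016 genes). With co-culture at 24 h r was 0.05 and rho 0.02, and at 6 h r was 0.08 and rho 0.23 (11010 genes).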

How the data were processed

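RNA-seq libraries of MEEC were grouped by their labels. Per the submitters' processing notes the authors used FastQC, cutadapt, RSEM and limma with the genome build GRCm38, versions not given, and deposited normalized signal per gene. Each deposited signal equalled a whole number of reads plus 0.5, scaled to a common library size; dividing by the step returned whole reads within 0.01 reads. log2(signal + 1) was fitted with limma 3.58.1 (R 4.3.3) on the 15 libraries of the experiment, with group and replicate number as terms, a variance trend and Benjamini-Hochberg adjustment over 13407 genes. No low-value filter was used, and 8 residual degrees of freedom remained. Same-numbered rDLL4 and rJAG1 libraries deviated together (correlations 0.18, 0.12 and 0.40 over 11016 genes), which was taken as pairing from the data; the labels give the numbers only. edgeR 4.0.16 on the recovered reads was an alternative. The co-culture tables were fitted alike without a block. The named genes were the 12 largest differences in each direction among called genes with a mean signal of at least 4, plus Notch genes and up to 4 called members of each list. Members and lists were chosen with earlier results of these data known. The fit was also run on simulated data that held no replicate effect, so that run says nothing on the choice of the block. Gene positions came from GENCODE and promoters from RefSeq; 13384 genes had symbols.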

Additional observations from a re-analysis of the deposited data

Results flagged for a closer look

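The ligand difference in Hey1 differed with and without the inhibitor by the interaction test: rDLL4 minus rJAG1 was -1.29 without RO4929097 and 0.15 with it, an interaction of -1.44 on the log2 scale (limma, adjusted p = 0.0425; lower over rDLL4 in 3 of 3 pairs without the inhibitor). The cause was not tested. It was the only gene past the threshold. When libraries were dropped one by one, 14 of 15 fits lost the call, the exception being DMSO library 3; it was also lost with edgeR, a pseudocount of 0.25 or the filter at a mean signal of 4.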

How the results depend on the processing

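Leaving out 1 library at a time gave 46 to 313 genes between rDLL4 and rJAG1 (43 to 277 of them graded), 1109 to 2475 for the mean of both ligands against DMSO, 475 to 1431 for rDLL4 and 1366 to 2825 for rJAG1 against DMSO, 0 to 2 under the inhibitor and 0 to 18 for the interaction. Without the replicate block the counts were 31 between ligands, 30 of them graded, 1122 for the mean, 469 for rDLL4, 1285 for rJAG1 and 2 for the interaction. Library weights gave 282 (250 graded), 3466, 2336 (51.9% of them higher, against 62.1%), 3186 and 40 in the same order. The groups of each contrast alone gave 42 between ligands (16 higher and 26 lower, 40 graded), 374 for rDLL4, 1150 for rJAG1, 62 under the inhibitor and 7 for the interaction. Without rJAG1 library 2 and DMSO library 3 together, chosen after the data were seen, there were 251 (234 graded), 3128 for the mean, 2196 for rDLL4, 3 under the inhibitor and 39 for the interaction. The interaction count was 3 after quantile normalization and 0 with a pseudocount of 0.25, a mean signal of at least 4 or edgeR. Between ligands, edgeR called 86, the pseudocount of 0.25 gave 108, the filter 102 and quantile normalization 116. Of the 118 genes, 35 stayed called in all 6 fits without 1 rDLL4 or rJAG1 library and 22 in 0. Efnb2, near 0 throughout, turned to -0.014 without rDLL4 replicate 2 and to -0.001 without rJAG1 replicate 3, its range over these fits being -0.014 to 0.052; no other named difference changed sign. Of 10914 genes not called and with a mean signal of at least 4, 99.2% had a 95% interval within 1 log2 unit of 0, with a median half-width of 0.183; a difference smaller than a gene's half-width has an interval that holds 0. Causes of these shifts were not tested.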
